A study of Mus musculus with 2 samples.

Results

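The T and natural killer (NK) cells of the mouse dura mater were taken as all barcodes of 2 droplet single-cell libraries that carried transcripts of the CD3 complex or of 3 NK cell genes. A barcode had to show at least 200 genes and at most 10% mitochondrial UMIs (unique molecular identifiers, which count RNA molecules). It entered with a sum of Cd3d, Cd3e and Cd3g of at least 2 UMIs, or with a sum of Nkg7, Gzma and Ncr1 of at least 3. It left again with 2 or more UMIs of Cd79a and Cd79b (B cells), 5 or more of the C1q genes (macrophages), 10 or more of Mcpt4, Cma1 and Tpsb2 (mast cells), or 10 or more of 4 collagen-type matrix genes (fibroblasts). Members were thus selected on the UMI counts of these genes, which are given only as description. The rule kept 105 of 7559 barcodes, 42 of 2608 in the ligature library and 63 of 4951 in the sham library.

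Both groups were dura mater of female mice: JVL-14 animals had their jugular veins ligated 14 days earlier, and sham animals had surgery without ligature, with no time after sham surgery given. The membrane was peeled from the skullcap after perfusion, digested with collagenase D and DNase I, combined from 2 meninges per well and sorted as viable singlets, with 20000 cells loaded per library. Strain, age and the number of animals are not given in the sources used here. Each group has 1 library, so no difference between groups could be tested, and every interval given covers counting error only.

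T cells recognise antigen through a T cell receptor, either an alpha-beta pair or a gamma-delta pair, which signals through the CD3 chains. NK cells carry no such receptor, read inhibitory and activating receptors of the Klr and Ncr families, and kill with perforin and granzymes stored in granules. Both are known residents of the dura, where T cells gather along the venous sinuses and gamma-delta T cells make interleukin-17.

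Read by markers outside the rule, the label held for most of the CD3 side and did not hold for most of the NK side. Lck, Lat, Cd2, Cd5, Cd6, Bcl11b and Tcf7, T cell genes that chose no barcode, were each found in both libraries among the 20 JVL-14 and 32 sham barcodes called the TCR set. Lat, for example, was in 14 and 23 of them. It was not confined to them, with a UMI in 21 JVL-14 and 30 sham members in all. The other CD3-side barcodes, 2 in JVL-14 and 7 in sham, included 1 and 3 with neutrophil transcripts. Of the 20 JVL-14 and 24 sham barcodes that entered on NK genes alone, only 2 and 5 carried NK receptor transcripts (5 or more UMIs of Klrb1c, Klrd1, Klre1 and Klrk1). A further 13 in each library carried transcripts of the granule proteases of myeloid or basophil precursors and entered on Nkg7 alone. The groups of barcodes used below, which were drawn after these values were seen, are therefore named by their leading genes.

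The sequences upstream of 4 genes that separate these groups are shown first: Cd3e for the CD3 side, Nkg7 for the NK side, and Elane and Prtn3 (neutrophil elastase and proteinase 3) for the protease barcodes. Each is the 250 bases before the gene's start, read 5′ to 3′ on the gene's own strand from RefSeq (GRCm38.p6; the count files use another build, mm39). Capitals mark 3 motifs on either strand: Runx (TGTGGT or GTGGTT, 2 spellings that can overlap each other), Ets (AGGAAG) and Myb (CAACNG).
Cd3e, chr9:45009612-45009861, minus strand: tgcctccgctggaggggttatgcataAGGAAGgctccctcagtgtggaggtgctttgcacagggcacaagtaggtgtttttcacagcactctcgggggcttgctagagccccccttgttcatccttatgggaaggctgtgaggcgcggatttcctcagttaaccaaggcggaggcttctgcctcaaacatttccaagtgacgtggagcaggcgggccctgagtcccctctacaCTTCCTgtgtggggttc
Nkg7, chr7:43436888-43437137, plus strand: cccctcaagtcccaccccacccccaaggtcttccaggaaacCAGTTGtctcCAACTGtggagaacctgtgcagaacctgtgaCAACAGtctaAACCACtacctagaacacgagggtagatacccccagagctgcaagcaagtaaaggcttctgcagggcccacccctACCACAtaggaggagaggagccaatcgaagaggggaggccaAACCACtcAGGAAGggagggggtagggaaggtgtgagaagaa
Elane, chr10:79886062-79886311, plus strand: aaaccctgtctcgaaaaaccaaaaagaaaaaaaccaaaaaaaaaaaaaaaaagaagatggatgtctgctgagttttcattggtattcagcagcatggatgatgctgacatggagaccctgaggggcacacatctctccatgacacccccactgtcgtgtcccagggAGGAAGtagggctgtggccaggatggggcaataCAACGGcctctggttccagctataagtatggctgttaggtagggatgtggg
Prtn3, chr10:79879417-79879666, plus strand: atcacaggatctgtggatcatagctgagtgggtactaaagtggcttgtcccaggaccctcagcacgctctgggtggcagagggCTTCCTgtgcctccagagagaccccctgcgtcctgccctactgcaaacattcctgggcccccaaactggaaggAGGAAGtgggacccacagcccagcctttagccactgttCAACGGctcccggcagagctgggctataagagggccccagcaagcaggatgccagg
The Nkg7 window held 3 Runx matches (at positions -158, -83 and -42 relative to the gene's start), 1 Ets match at -34 and 3 Myb matches. Cd3e held 2 Ets matches and neither of the others. Elane and Prtn3, which neighbour each other on chromosome 10, each had 1 Myb match, at -51 and -56, with 1 and 2 Ets matches upstream of it. Among 32817 windows of the same length, 19.6% held the Runx motif, 29.5% the Ets motif and 29.3% the Myb motif, so each is common, and a match is a description and not a binding site.

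The members were a small share of both libraries. They made up 1.61% of JVL-14 barcodes (42 of 2608) and 1.27% of sham barcodes (63 of 4951), a ratio of 1.27 with a 95% interval of 0.835 to 1.90 that holds equality. The CD3 side held 22 JVL-14 members (52.4%) and 39 sham members (61.9%), with Clopper-Pearson intervals of 36.4% to 68.0% and 48.8% to 73.9%. Just inside the CD3 threshold lay 3 JVL-14 and 7 sham barcodes at 2 UMIs, and just outside it 16 and 27 at 1 UMI. On the NK side, 3 JVL-14 and 4 sham barcodes sat at 3 UMIs, with 2 and 3 at 2 UMIs just outside. The exclusions removed 20 JVL-14 and 29 sham barcodes that had met a threshold, 13 and 15 of them for C1q transcripts.

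**Figure D1:**
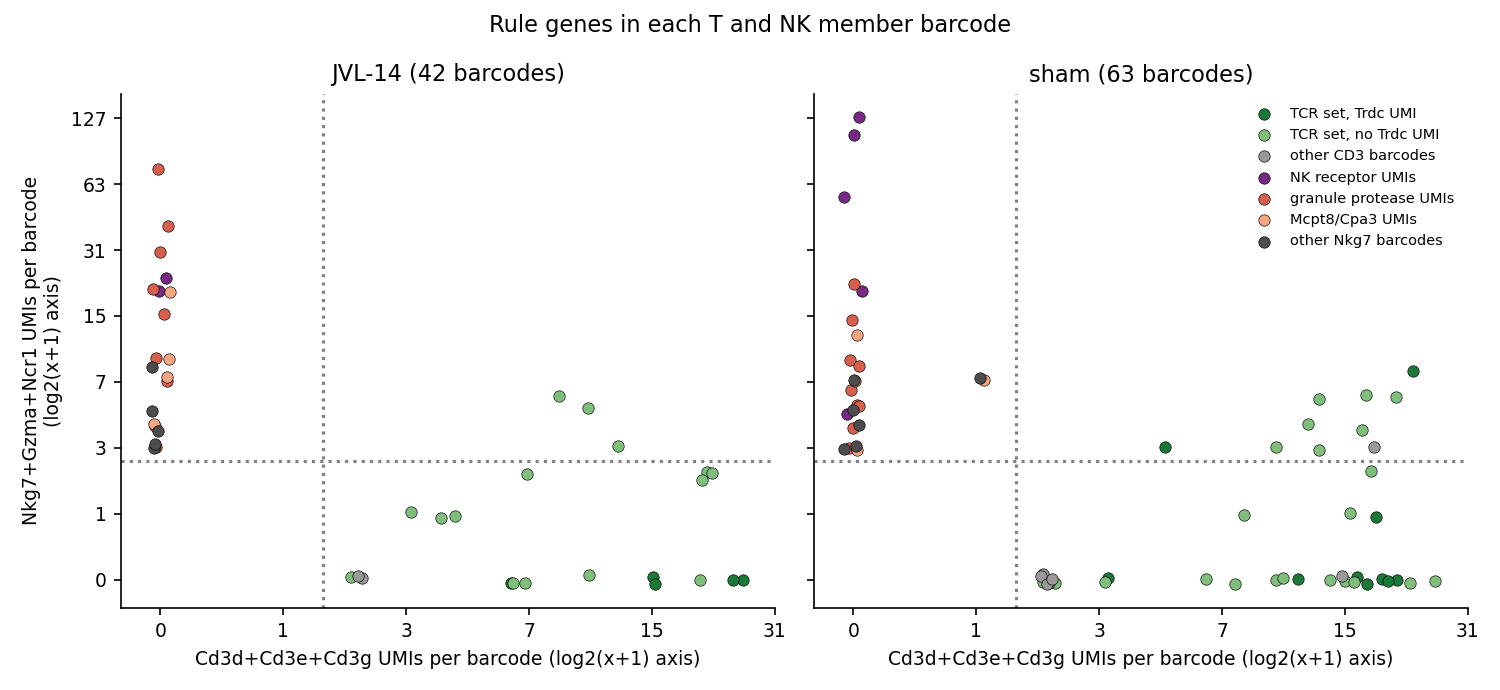
Sum of Cd3d, Cd3e and Cd3g UMIs (x) against the sum of Nkg7, Gzma and Ncr1 UMIs (y) in each member barcode, on log2(x+1) axes with small random offsets so that points do not hide each other; dotted lines are the rule's thresholds of 2 and 3 UMIs. In JVL-14 (left) and sham (right) most barcodes lie along one axis, and 3 and 10 barcodes pass both thresholds. The highest NK-gene sum is 75 in JVL-14, in a protease barcode, and 130 in sham, in an NK receptor barcode.

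The libraries were close in depth, with medians of 4716 UMIs per passing barcode in JVL-14 and 4717 in sham, and shared 2 barcode sequences, none of them a member. Inside the members, depth divided the 2 sides. CD3 barcodes had medians of 3817 and 4070 UMIs in JVL-14 and sham, and the barcodes on the NK side alone had 19484 and 13851. The NK side supplied 84.6% of member UMIs in JVL-14 and 64.7% in sham.

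The T cell core of the members was the TCR set: barcodes on the CD3 side with at least 2 UMIs of Trac, Trbc1, Trbc2 and Trdc (the receptor's constant regions) and at most 10000 UMIs in all. It held 20 JVL-14 and 32 sham barcodes, 0.767% and 0.646% of those passing, with a ratio of 1.19 (0.643 to 2.14). Cd3g and Trbc2 were found in 20 of 20 JVL-14 and 32 of 32 sham barcodes. The Cd3g level was 1710 CPM (UMIs per 1000000 UMIs of the same barcodes, 95% Poisson interval 1425 to 2037) in JVL-14 and 1595 CPM (1384 to 1829) in sham, and Trbc2 stood at 1873 CPM (1574 to 2213) and 1618 CPM (1406 to 1854). Both genes took part in choosing these barcodes, so their levels are a description. For background, a Cd3g UMI was seen in 0.386% of 777 JVL-14 and 0.174% of 1722 sham fibroblast barcodes, which had median depths of 6611 and 7163 UMIs, against TCR set medians of 3817 and 3954.

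Most TCR set barcodes could not be placed by coreceptor. Counted over the whole CD3 side, a Trdc transcript without Cd4 or Cd8b1 was present in 5 JVL-14 and 11 sham barcodes, Cd4 in 2 and 5, Cd8a or Cd8b1 in 1 and 2, and none of these in 14 and 21. No barcode showed Cd4 together with Cd8. Coreceptor transcripts were thin where present: Cd4 had 2 UMIs in all in the JVL-14 TCR set and 6 in sham, and no barcode had more than 2. Foxp3, which defines regulatory T cells, had 0 UMIs in 20 JVL-14 and 32 sham barcodes, which at 3 counts allows up to 40.7 and 23.3 CPM. The other 5 of 6 regulatory T cell markers summed to 28 UMIs in JVL-14 and 88 in sham. Among the checkpoint genes that activated T cells also use, Icos had 40 and 45 UMIs and Ctla4 had 4 and 19.

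Ccr7, Mki67 and 4 precursor genes were at or near 0 in the TCR set, and Cxcr6 and Il7r were frequent. Ccr7, which guides T cells into lymph nodes, had 0 UMIs in JVL-14 and 1 in sham, and Mki67, which marks dividing cells, also had 0 and 1. The thymic precursor genes Rag1, Rag2, Dntt and Ptcra had none in either library. Cxcr6, a chemokine receptor of tissue T cells, was found in 17 of 20 JVL-14 and 23 of 32 sham barcodes, and Il7r, the receptor for a survival cytokine, in 13 and 25. Gzma, Gzmb and Ncr1 had 0 UMIs in the TCR set of both libraries, while Nkg7 was present in 10 JVL-14 and 13 sham barcodes.

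Markers of other cells were low in the TCR set. Of 7 B cell markers, 6 were at 0 in JVL-14 and 5 in sham, with 1 and 2 UMIs in all, and 7 neutrophil markers summed to 3 and 9 UMIs. Erythroid markers stood higher, at 638 CPM in JVL-14 and 311 CPM in sham (47 and 40 UMIs over 18 of 20 and 23 of 32 barcodes). Macrophage markers had 23 UMIs (312 CPM) in JVL-14 and 19 (148 CPM) in sham. Olfactory neuron markers had 13 and 20 UMIs, with 11 of the JVL-14 UMIs in 1 barcode. Skeletal muscle markers had 0 UMIs in JVL-14 and 14 in sham, with 1 of 5 at 0. The part of these markers in the differences between the libraries was not tested. Group 2 innate lymphoid cell markers reached 1195 and 1050 CPM, with 6 of 9 detected in each library. Gata3, the T helper 2 and innate lymphoid regulator, was in 7 and 12 barcodes, and Il13 and Il5 were at 0. In the next comparisons, 2 JVL-14 and 6 sham barcodes with 5 or more UMIs of Gata3, Il1rl1 and Areg are kept unless stated. Whether all of them are T cells is not settled. For example, 1 JVL-14 barcode held 9 Gata3 UMIs beside 2 of Cd3g and none of Cd3d, Cd3e and Trac.

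**Figure D2:**
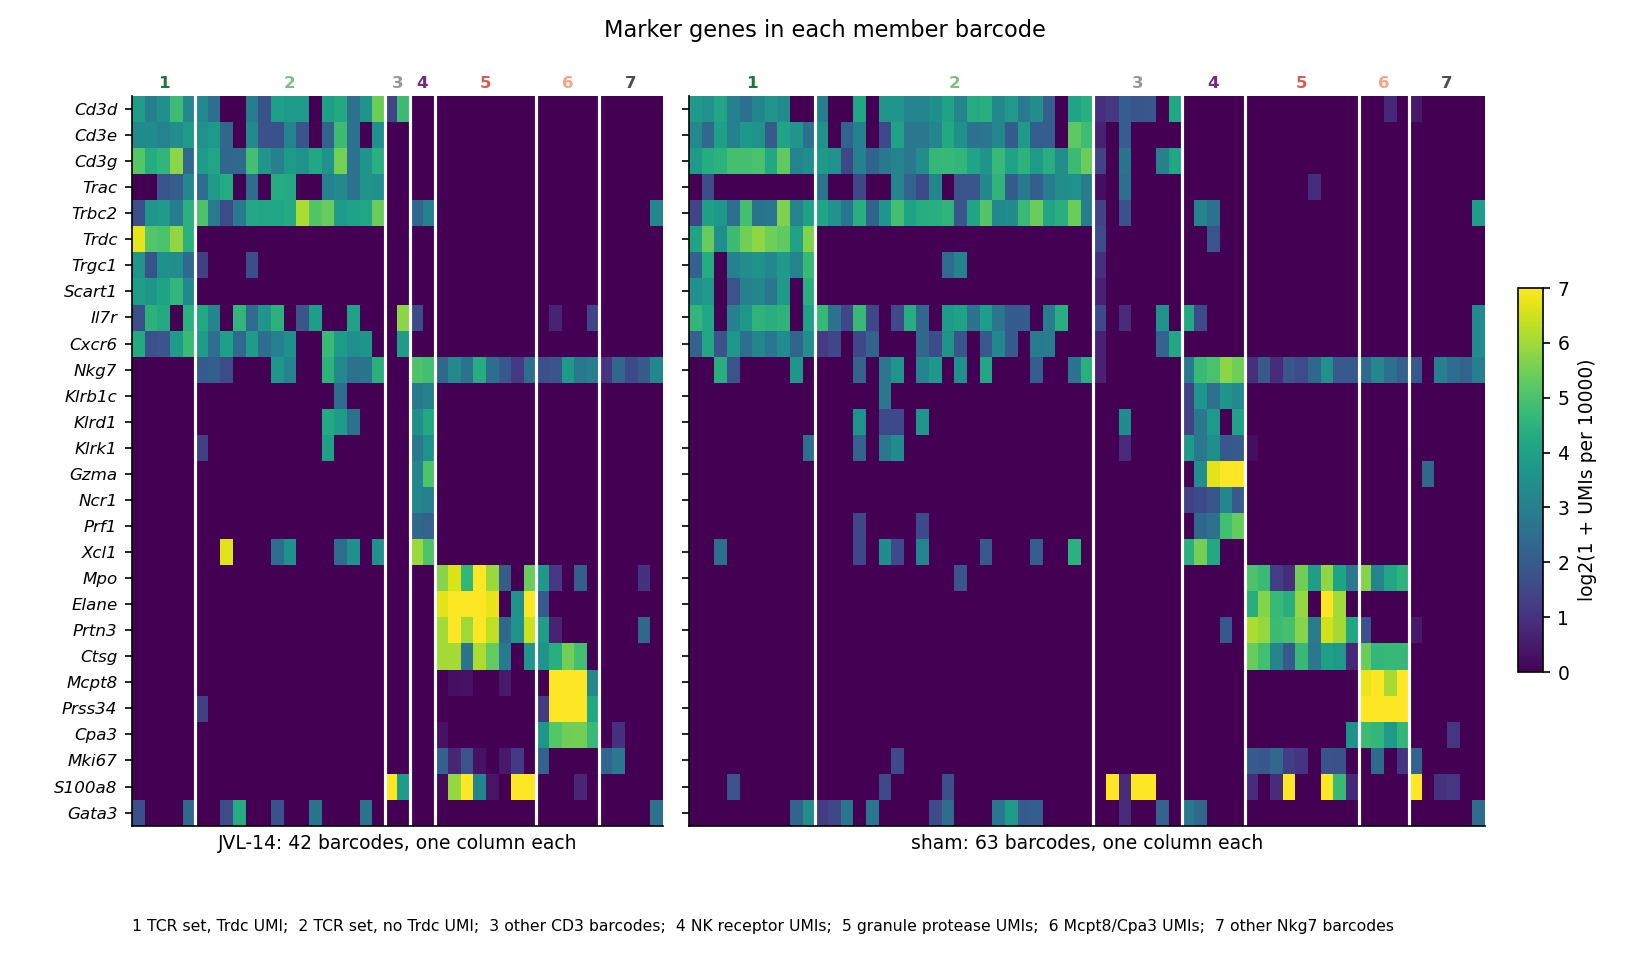
Expression of 28 marker genes (rows) in each member barcode (columns), as log2(1 + UMIs per 10000), with JVL-14 left and sham right; numbers above the columns give the groups listed under the panels. CD3 and TCR genes fill groups 1 and 2, Trdc with Trgc1 and Scart1 fills group 1, the NK receptors stand in group 4, and Nkg7 runs through groups 4 to 7 beside the protease genes of groups 5 and 6.

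The TCR set was divided by Trdc, the constant chain of the gamma-delta receptor. A Trdc UMI was found in 5 of 20 JVL-14 barcodes (25.0%, 8.66% to 49.1%) and 10 of 32 sham barcodes (31.3%, 16.1% to 50.01%). The 5 JVL-14 barcodes held 5, 12, 14, 17 and 46 Trdc UMIs, and the 10 sham barcodes between 4 and 20. The background share with a Trdc UMI in fibroblast barcodes was 0.515% and 0.348%. All 8 gamma-delta markers, Trdc itself among them, were detected over these barcodes in both libraries. They do not identify each barcode: 1 sham barcode with 4 Trdc UMIs had none of Trgc1, Scart1, Trdv4, Blk and Trgv6, and held 8 UMIs of Nkg7 and 9 of Ccl5.

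The genes that accompanied Trdc did so in both libraries, although the split was made on these same cells and is a description. Scart1, a scavenger receptor of gamma-delta T cells, had 26 UMIs in 5 of 5 JVL-14 Trdc barcodes and 29 in 8 of 10 sham ones, with 0 in the 15 and 22 barcodes without Trdc. Blk, a Src-family kinase of interleukin-17-producing gamma-delta cells, had 7 and 12 UMIs with Trdc and 0 without it in either library. Trgc1 (gamma constant region 1) stood at 792 CPM with Trdc against 35.7 CPM without it in JVL-14. In sham, Trgc1 stood at 965 CPM with Trdc and 54.8 CPM without. Trdv4 and Trgc2, a variable and a constant gene of the same receptor, Pdcd1, which encodes the inhibitory receptor PD-1, and Rgcc were also higher with Trdc in both libraries. Trgv6, the gamma variable gene of the interleukin-17 subset in many mouse barrier tissues, gave 3 UMIs in 3 of 5 JVL-14 and 3 in 3 of 10 sham Trdc barcodes, and 0 without Trdc.

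Several genes of conventional and cytotoxic T cells were lower in the barcodes with Trdc, though not every JVL-14 count was deep enough to show it. The beta chain constant genes did not divide them so clearly. Trbc2 was found in every barcode with Trdc, and Trbc1 was not lower with Trdc in JVL-14. Trac, the alpha chain constant region, was at 226 CPM with Trdc against 804 CPM without it in JVL-14, and at 26.8 CPM with it against 438 CPM without in sham. Cd28, the main costimulatory receptor, had 0 UMIs with Trdc and 9 without it in JVL-14, and 1 and 36 in sham. Cd5, which dampens receptor signalling, had 0 UMIs with Trdc in both libraries, and 7 without it in JVL-14 and 14 in sham. Ccl5, a chemokine of effector and memory T cells, had 0 UMIs with Trdc and 40 UMIs in 6 barcodes without it in JVL-14. In sham it had 9 UMIs in 1 barcode with Trdc and 204 UMIs in 7 barcodes without it. Klrd1 (CD94) had 0 UMIs with Trdc in both libraries, and 9 without it in JVL-14 and 14 in sham. Inpp4b, a lipid phosphatase, had 0 UMIs with Trdc in both libraries, and 17 without it in JVL-14 and 26 in sham. In JVL-14 the barcodes with Trdc held 17684 UMIs in all against 55980 without it, and a count of 0 allows 3 UMIs. For Cd28, Cd5 and Klrd1 in JVL-14, that allowance is above the level without Trdc, 161, 125 and 161 CPM. Their JVL-14 counts therefore do not show a lower level with Trdc. NK receptor transcripts were found in 4 barcodes without Trdc in each library and in 1 sham barcode with Trdc, as 1 Klrk1 UMI. Nkg7 had 0 UMIs with Trdc and 25 without it in JVL-14, and 12 UMIs in 3 barcodes with Trdc and 36 in 10 without it in sham.

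**Figure D3:**
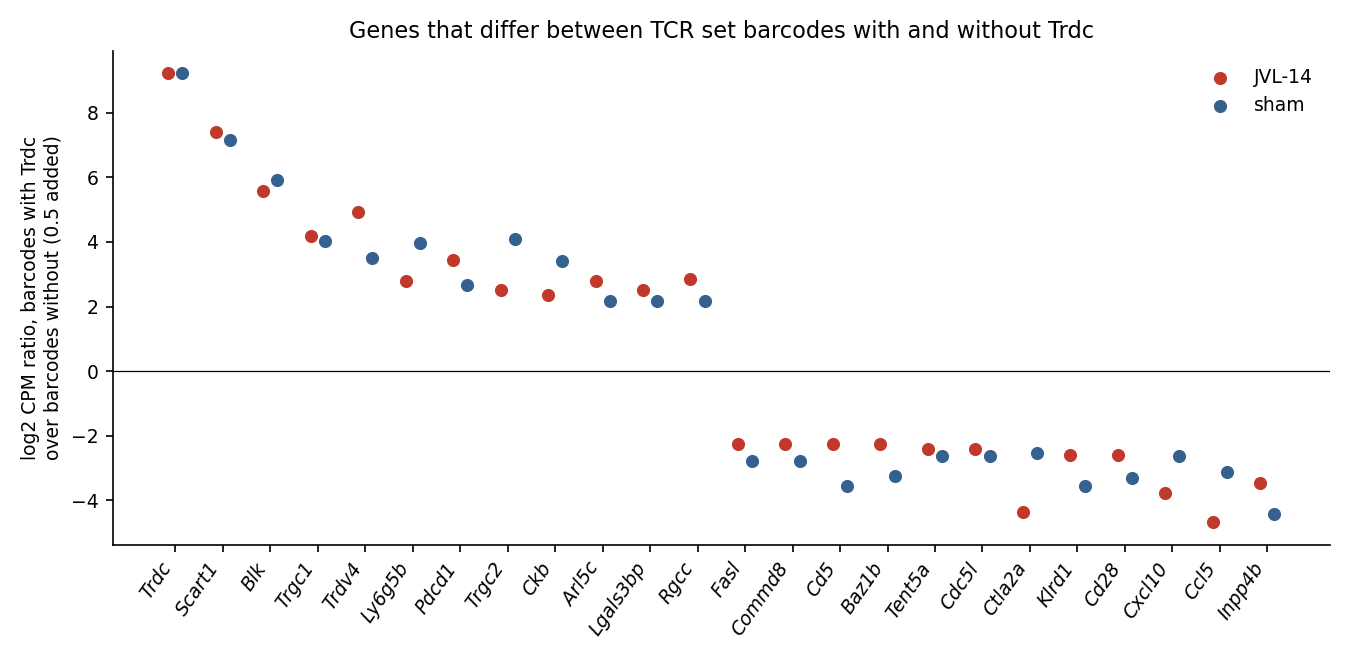
log2 CPM ratio of TCR set barcodes with a Trdc UMI over those without, for 12 genes above 0 and 12 genes below 0, ranked by whichever library has the smaller ratio; red points are JVL-14 (5 against 15 barcodes) and blue points sham (10 against 22), with 0.5 added to each count. For Trdc, Scart1, Blk and Trgc1 the 2 libraries fall within 0.5 of each other, and each gene lies on the same side in both, which the way of choosing them requires.

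The interleukin-17 programme was present in part, and Il17a itself was seen in the TCR set of JVL-14 and not in that of sham. Il17a had 19 UMIs in 3 of 20 JVL-14 TCR set barcodes, 9 and 7 of them in 2 Trdc barcodes and 3 in a barcode without Trdc. It had 0 UMIs in 32 sham barcodes, which allows up to 23.3 CPM, against 258 CPM (155 to 403) in JVL-14. With the sham count set to 3 UMIs over the group the ratio was 11.1. That value leaves out the counting error in JVL-14 and the spread between barcodes. Il1r1, the interleukin-1 receptor that drives this programme, was found in 3 JVL-14 Trdc barcodes (4 UMIs) and no sham barcode. Il23r, the interleukin-23 receptor, had 6 UMIs in JVL-14 and 5 in sham. Il17f and Ccr6 gave 0 UMIs in the Trdc barcodes of both libraries. Of the 17 genes of the gamma-delta and interleukin-17 list, 5 were measured (at least 40 UMIs over both libraries), 4 higher and 1 lower in JVL-14, with a median log2 ratio of 0.43 against 0.03 for all measured genes.

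The members with NK receptors were 2 JVL-14 and 5 sham barcodes. Each had 0 UMIs of Cd3d, Cd3e, Cd3g and Trac, and all 10 NK markers were found in sham and 9 in JVL-14. Ncr1, the receptor NKp46, had 2 and 4 UMIs in the JVL-14 barcodes and between 1 and 3 in the sham ones. Klrb1c (NK1.1) had 2 and 3 UMIs in JVL-14 and between 1 and 6 in sham. Gzma (granzyme A) had 9 and 4 UMIs in JVL-14 and 115, 87, 41, 5 and 0 in sham, so that 3 of the 5 sham barcodes were above both JVL-14 ones. Prf1 (perforin) had 1 and 2 UMIs in JVL-14 and 13, 10, 2, 2 and 0 in sham. Xcl1, a chemokine that draws cross-presenting dendritic cells, had 9 and 30 UMIs in JVL-14 and 0, 0, 7, 23 and 13 in sham. The 2 sham barcodes with the most Gzma had no Xcl1. With 2 and 5 barcodes no ratio between the libraries is given.

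Outside the members, a further 19 JVL-14 and 46 sham barcodes had 5 or more UMIs of Klrb1c, Klrd1, Klre1 and Klrk1. The rule itself favours low Nkg7 among them, and 16 and 42 had none. Among the 19 and 46 barcodes, 11 and 25 carried Cd209a, a gene of dendritic cells. Klrd1 supplied 145 of their 195 NK receptor UMIs in JVL-14 and 294 of 412 in sham.

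The remaining NK-side members were led by granule proteases. Barcodes with at least 30 UMIs of Mcpt8, Prss34, Ms4a2, Cpa3 and Fcer1a were set aside first and are described after this group. Of the rest, 8 JVL-14 and 9 sham barcodes had at least 30 UMIs of Mpo, Elane, Prtn3 and Ctsg, the genes for myeloperoxidase and the serine proteases that granulocyte precursors pack into their first granules. Elane had 3631 UMIs in 7 of the 8 JVL-14 barcodes and 1149 in 7 of the 9 sham barcodes, a level of 12313 CPM against 4213 CPM in sham. Prtn3 stood at 8542 and 4877 CPM, and Mpo at 5650 and 2255 CPM. Nkg7 had between 3 and 75 UMIs per JVL-14 barcode (median 18.5) and between 3 and 21 per sham barcode (median 6). Mki67 was present in 6 of 8 and 7 of 9, and 3 JVL-14 and 2 sham barcodes also held over 1000 UMIs of S100a8, a calprotectin subunit of later neutrophil stages. Gzma, Ncr1 and Klrd1 were at 0 in all 17 barcodes.

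The group set aside held 5 JVL-14 and 4 sham barcodes with basophil and mast cell precursor genes, and 4 in each library also reached 30 UMIs of the granule proteases. Mcpt8, the protease that marks mouse basophils, had 0, 5, 312, 352 and 362 UMIs in the JVL-14 barcodes and 95, 142, 182 and 246 in the sham ones. Prss34, a second basophil protease, had between 4 and 896 UMIs in JVL-14 and between 420 and 1094 in sham. Nkg7 stood at 523 CPM and 539 CPM in these barcodes. The last 5 JVL-14 and 6 sham barcodes entered with 3 to 8 UMIs of the rule's NK genes and shared no programme: 1 JVL-14 barcode held Trbc2 and Gata3 without CD3, as did 1 sham barcode, and 1 sham barcode entered on 5 Gzma UMIs beside neuronal Stmn2 and Sox11.

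The Nkg7 content of these precursors was not limited to the members. Over the whole libraries, barcodes with at least 30 UMIs of the 4 granule proteases and under 30 of the basophil genes had 567 CPM of Nkg7 (507 to 632) in JVL-14 and 248 CPM (218 to 281) in sham. Of 20 such JVL-14 and 34 sham barcodes, 13 and 17 reached 3 Nkg7 UMIs, and none had a Gzma or Ncr1 UMI. Barcodes of later neutrophil stages, with 100 or more UMIs of Camp, Ngp and Ltf, had 1.64 and 8.87 CPM, and fibroblast barcodes 0.713 and 8.54 CPM.

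The TCR set left out 2 CD3-side barcodes of JVL-14 and 7 of sham. Of these, 1 and 3 carried over 1000 UMIs of S100a8 with 2 CD3 UMIs. Another 1 and 2 had 2 CD3 UMIs and no TCR transcript. The last 2, both sham, passed 10000 UMIs: one of 52247 UMIs held 17 CD3 UMIs with 154 of Ctsk and 275 of Acp5, both osteoclast genes, and one of 12387 UMIs held 15 CD3 UMIs with 386 of Cd74, the MHC class II invariant chain.

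**Figure D4:**
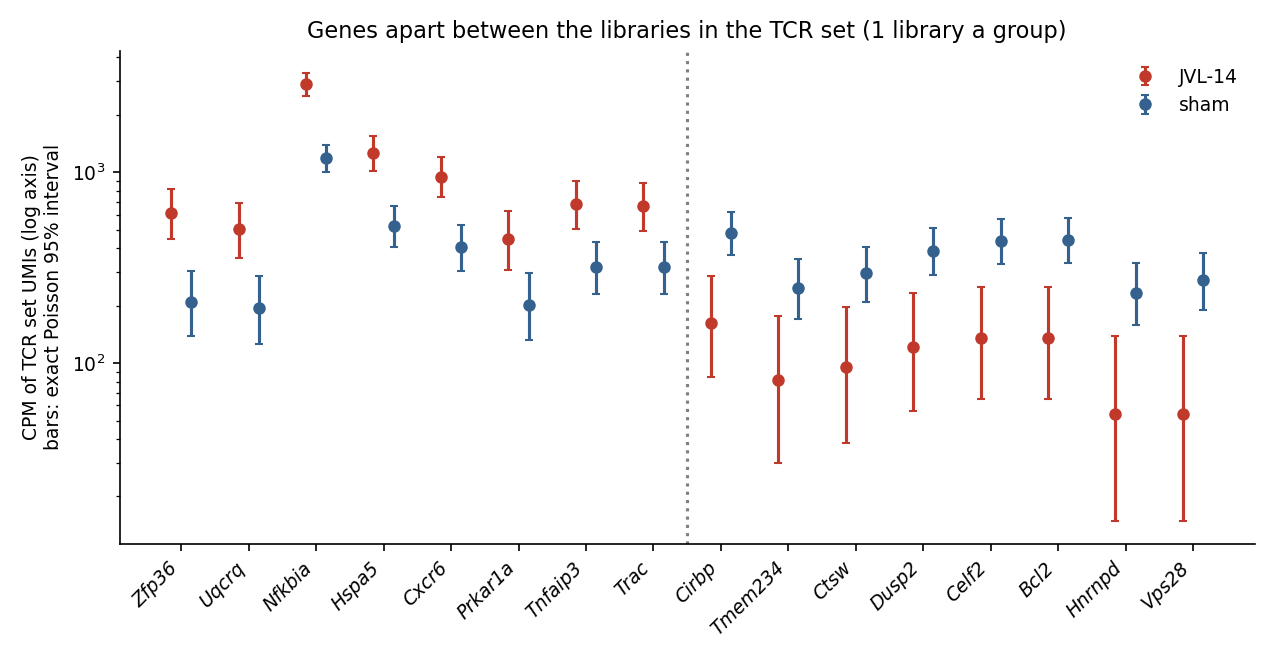
CPM in the TCR set, on a log axis, of the 8 named higher and 8 named lower genes, with JVL-14 (red) left and sham (blue) right in each pair, with exact Poisson 95% intervals that cover counting error in 1 library a group. The 2 intervals lie apart for each gene but Tmem234, which the choice by ratio favours.

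Between the libraries, the TCR set of JVL-14 was higher in inhibitors of NF-kB signalling and in genes of tissue residence, and lower in Bcl2 and in Ccl5 and Ccl4. Of 688 measured genes, 26 were more than 2-fold higher in JVL-14 (3.78%) and 21 more than 2-fold lower (3.05%), and 1 library a group allows no test. Under some other ways of processing, lower genes outnumbered higher ones. There were 16 higher and 35 lower without each gene's highest barcode, and 47 and 85 with the CD3-side barcodes over 10000 UMIs. Other settings, given at the end, kept more higher genes. The number of genes measured under each of these is not given, so these counts are not shares and can be compared only within a setting. Nfkbia, which encodes the NF-kB inhibitor I-kappa-B-alpha, had 213 UMIs in 15 of 20 JVL-14 barcodes (median 6, highest 35) and 152 in 25 of 32 sham barcodes (median 2, highest 23). Its level was 2892 CPM in JVL-14 and 1182 CPM in sham, a ratio of 2.45 (1.98 to 3.03). Tnfaip3 (A20), which shuts NF-kB signalling off, was at 679 CPM in JVL-14 and 319 CPM in sham, a ratio of 2.13 (1.38 to 3.30). Nfkbid was at 339 and 140 CPM with 14 of its 25 JVL-14 UMIs in 1 barcode, and Nfkbiz was at 231 and 202 CPM. All 4 measured members of the 16-gene NF-kB list were thus higher in JVL-14, 3 of them past 2-fold. Nfkbia and Nfkbiz also stand in the list of immediate early genes that tissue digestion is known to induce, and the part of digestion was not tested. Of the 8 higher and 8 lower genes named here, 1 and 5 stayed past 2-fold under 12 of 12 other ways of processing. In fibroblast barcodes Nfkbia stood the other way, at 385 CPM in JVL-14 and 675 CPM in sham.

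The 250 bases upstream of Nfkbia and Tnfaip3, shown because both genes were higher together, are given with the same source and orientation, and capitals mark the NF-kB motif GGANNTTCC on either strand.
Nfkbia, chr12:55492648-55492897, minus strand: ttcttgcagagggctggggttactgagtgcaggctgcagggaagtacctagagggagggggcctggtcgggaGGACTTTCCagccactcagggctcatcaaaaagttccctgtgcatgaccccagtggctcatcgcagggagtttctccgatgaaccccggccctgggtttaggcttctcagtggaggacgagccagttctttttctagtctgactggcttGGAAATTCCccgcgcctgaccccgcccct
Tnfaip3, chr10:19015411-19015660, minus strand: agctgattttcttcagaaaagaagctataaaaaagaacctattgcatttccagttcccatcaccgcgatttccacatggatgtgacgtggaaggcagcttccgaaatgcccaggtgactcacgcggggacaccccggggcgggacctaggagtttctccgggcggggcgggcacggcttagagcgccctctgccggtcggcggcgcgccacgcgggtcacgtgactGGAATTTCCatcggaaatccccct
Nfkbia held 2 matches, at -178 and -29, and Tnfaip3 held 1 at -24, while the window of its second start held none. Among all 32817 windows 3.58% held one. Nothing in these counts measures binding.

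Zfp36, which binds AU-rich transcripts of cytokines and destabilises them, had the highest ratio under the rule for named genes, with 611 CPM in JVL-14 and 210 CPM in sham (ratio 2.91, 1.77 to 4.87). It was found in 11 of 20 JVL-14 and 15 of 32 sham barcodes. The wider immediate early list was divided: of 17 measured genes 10 were higher and 7 lower in JVL-14, with a median log2 ratio of 0.20. Jun stood at 1860 CPM in JVL-14 and 1050 CPM in sham, and Fos at 1819 and 1182 CPM. Dusp2 (122 and 389 CPM), Fosb (204 and 436 CPM) and Ppp1r15a (312 and 529 CPM) were lower.

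Residency genes were higher in JVL-14 for all 5 measured of 11, with a median log2 ratio of 0.78 against 0.03 for all measured genes. Cxcr6 had 70 UMIs in 17 of 20 JVL-14 barcodes (median 3) and 52 in 23 of 32 sham barcodes (median 1), a level of 950 CPM against 404 CPM and a ratio of 2.35 (1.62 to 3.43). With Trdc it was at 1131 CPM in JVL-14 and 777 CPM in sham, a small difference that rests on 20 and 29 UMIs. Without Trdc it was at 893 and 252 CPM, on 50 and 23 UMIs. No interval was computed for either subset. Rgs1, a regulator of chemokine receptor signalling, stood at 1195 and 552 CPM, with 31 of 88 JVL-14 UMIs in 1 barcode. Cd69, which keeps T cells in tissue by holding down a lipid egress receptor, stood at 787 and 537 CPM (ratio 1.47, 1.02 to 2.11). Rgs2 and Nr4a1 had ratios of 1.72 and 1.42. Klf2, which drives egress from tissue, had 3 UMIs in JVL-14 and 33 in sham, 16 of the sham UMIs in 1 barcode. These were too few for Klf2 to be measured. Of the 11 naive and recirculating T cell genes, which include Klf2, 3 were measured. Of these, 2 were higher and 1 lower in JVL-14, with log2 ratios between -0.02 and 0.63. Cd69 and Nr4a1 also stand in the immediate early list of genes that tissue digestion can induce. Of the residency integrins, Itgae had 4 UMIs in JVL-14 and 1 in sham, and Itga1 had 0 and 4, too few to be measured.

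Of the 8 measured receptor and CD3 genes 6 were higher and 2 lower in JVL-14, but all except Trgc1 had a part in choosing the barcodes, so these levels are a description. Among them only Trac passed 2-fold, at 665 CPM in JVL-14 and 319 CPM in sham (ratio 2.09, 1.35 to 3.24). Cd3d had a ratio of 1.01 and Cd3e of 0.881. All 6 measured coreceptor and proximal signalling genes were lower, with a median log2 ratio of -0.26, and Cd28 alone was past 2-fold, with 9 UMIs in 5 JVL-14 barcodes and 37 in 14 sham barcodes (ratio 0.424, 0.180 to 0.896). Lck, the kinase that starts receptor signalling, was at 163 and 241 CPM, and Lat, an adaptor of the same pathway, at 407 and 475 CPM. Of 5 measured lineage factors Id2, Bcl11b and Maf were higher and Rora and Ikzf3 lower, none past 2-fold.

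Survival and quiescence genes were mostly lower in JVL-14, 5 of 6 measured, with a median log2 ratio of -0.47. Bcl2, which protects resting T cells from death, had 10 UMIs in 5 of 20 JVL-14 barcodes (highest 4) and 57 in 20 of 32 sham barcodes (highest 13), a level of 136 CPM against 443 CPM and a ratio of 0.306 (0.139 to 0.605). Txnip, an inhibitor of glucose uptake in resting cells, was at 502 and 887 CPM, and Btg2 went the other way at 1548 and 1019 CPM. Ctsw, a protease of cytotoxic lymphocytes, was at 95.03 and 296 CPM (ratio 0.321, 0.121 to 0.729). Vps28 (endosomal sorting), the RNA-binding Hnrnpd, Celf2 and Cirbp, and Tmem234 completed the 8 lowest with Dusp2, with ratios between 0.199 and 0.338.

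Chemokines pointed in different directions and rested on few barcodes. Xcl1 had 58 UMIs in 6 JVL-14 barcodes, 48 of them in 1 barcode, and 19 UMIs in 8 sham barcodes, at most 5 in any. Ccl5 had 40 UMIs in 6 JVL-14 barcodes and 213 in 8 sham barcodes, a ratio of 0.328 (0.228 to 0.461). Ccl4, a chemokine of activated lymphocytes, had 3 UMIs in 2 JVL-14 barcodes and 43 in 4 sham barcodes. A Ccl5 UMI was found in 30.0% of JVL-14 and 25.0% of sham barcodes, with at most 18 and 57 UMIs in any. Ifng had 7 UMIs in 4 JVL-14 barcodes and 3 in 2 sham barcodes. Areg, a growth factor of tissue repair, had 32 and 27 UMIs with 22 of the JVL-14 UMIs in 1 Trdc barcode.

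Heat shock genes were higher in 5 of 6 measured, with a median log2 ratio of 0.62. Hspa5, the chaperone of the endoplasmic reticulum, had 93 UMIs in 17 JVL-14 barcodes and 67 in 25 sham barcodes, a ratio of 2.42 (1.75 to 3.37). Hspa8 and Dnaja1 had ratios of 1.55 and 1.74. Mitochondrially encoded genes were lower in 9 of 11, with a median of -0.30, led by mt-Co1 at 2647 CPM in JVL-14 and 4318 CPM in sham. The median mitochondrial share of the TCR set's barcodes was 1.61% in JVL-14 and 2.03% in sham. Among 6 measured genes of antigen presentation by MHC class I, 5 were lower (median -0.19), while B2m was higher at 2552 and 2077 CPM. Of 4 measured interferon response genes 3 were lower, led by Ifi27l2a at 204 CPM in JVL-14 and 537 CPM in sham (ratio 0.379, 0.202 to 0.670). Uqcrq and Prkar1a, of the respiratory chain and of cyclic AMP signalling, completed the 8 highest at ratios of 2.58 and 2.22.

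**Figure D5:**
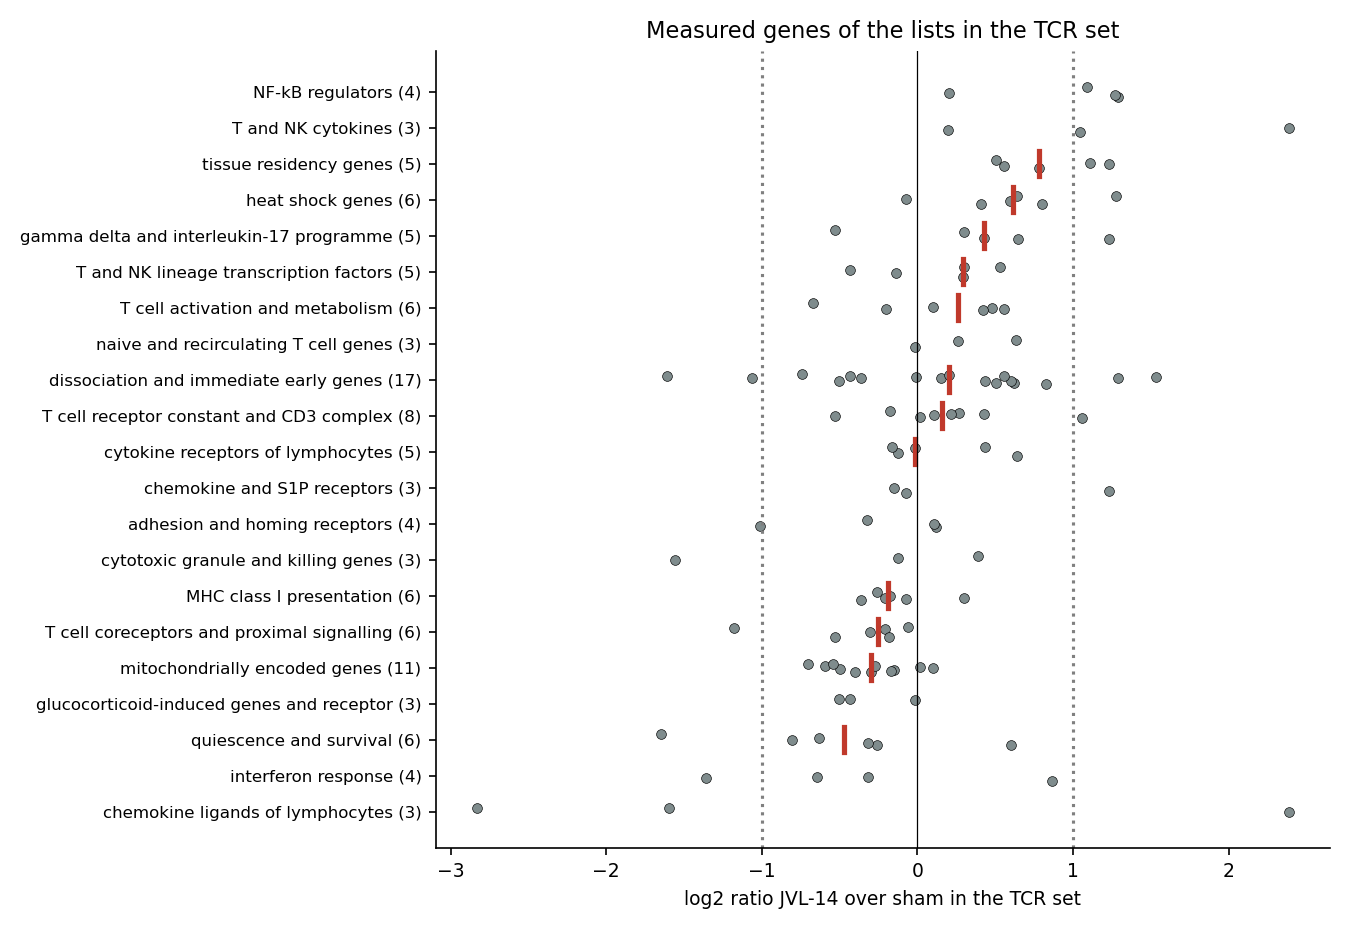
log2 ratio of JVL-14 over sham in the TCR set for each measured gene (points) of the lists with 3 or more measured genes, the number in brackets; red bars are medians of lists with at least 5, and dotted lines mark 2-fold. Residency genes all lie right of 0, coreceptor genes all left of it, and quiescence genes left of it but for 1.

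Over all 105 members, the protease barcodes held much of the RNA compared. Of 3778 measured genes, 115 were more than 2-fold higher in JVL-14 (3.04%) and 211 more than 2-fold lower (5.58%), with a median log2 ratio of -0.03. Elane stood at 6528 CPM in JVL-14 and 1784 CPM in sham, a ratio of 3.66 (3.42 to 3.91), and all but 9 of its 3640 JVL-14 UMIs lay in the 8 granule protease barcodes. Those barcodes supplied 52.9% of JVL-14 and 42.3% of sham member UMIs. Cst7 (cystatin F) had 82 UMIs in JVL-14 and 35 in sham, of which 62 and 17 were in the same barcodes. Both directions turned, to log2 ratios of -7.06 for Elane and -0.17 for Cst7, when barcodes with any UMI of the other classes' rule genes were left out. Among genes that passed the filters for naming (depth, spread over barcodes and level against other barcodes), Adgrg1, an adhesion receptor, had the highest ratio, at 95.1 and 18.6 CPM. Mns1, Xpc, Cox6b2, H3c7, Hcfc1, Rrp1b and Vamp5 completed the 10 highest, with ratios between 2.71 and 4.88. The 10 lowest under the same filters, which leave out genes such as Gzma with most UMIs in few barcodes, held Cxcr4, the receptor that holds leukocytes in bone marrow, at 32.3 and 132 CPM, and Cebpb, a myeloid regulator, at 37.7 and 160 CPM. Kif1b, Nudt4, Tpd52, Ppm1a, Ctsw, Lgals3, Stx7 and Pip4p1 were the rest, with ratios between 0.210 and 0.272. Kif1b, with 39 UMIs over both libraries, was under the 40 needed to be measured.

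In the sum over all members, lists of lymphocyte genes stood on both sides. Receptor and CD3 genes were lower in 7 of 8, with a median log2 ratio of -0.53, where in the TCR set 6 of 8 were higher. Cytotoxic genes had a median of -1.20 over 7 genes, with Gzma at 13 UMIs in JVL-14 and 253 in sham, 115 of the sham UMIs in 1 barcode. All 11 measured heat shock genes were higher, with a median of 0.55. Chemokine ligands were higher in 4 of 5 (median 1.60), residency genes in 3 of 5 (median 0.43) and NF-kB regulators in 5 of 7 (median 0.31). The share of UMIs from the NK side, 84.6% in JVL-14 and 64.7% in sham, moved with these medians, and its part in them was not tested.

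Set against all other barcodes of their library, the genes that led the members in both libraries were of 3 kinds. They were T cell genes (Trdc, Cd3g, Cd3e, Cd3d, Trbc2, Lat), precursor protease genes (Mcpt8, Prss34, Ctsg, Prtn3, Elane, Mpo, with Ms4a3) and Nkg7 with Xcl1. Xcl1 stood at 174 CPM in JVL-14 members against 1.66 CPM in the other barcodes, and at 96.3 against 0.580 CPM in sham. For the TCR set alone the leaders were Scart1, Trdc, Cd3g, Xcl1, Cd3e, Cd3d, Trgc1, Il18r1, Trac, Trbc2, Gimap4, Il2rb, Trbc1, Lat and Gimap3. Within the members, the CD3 side over the NK side alone was led by Cd3g, Cd3e, Trgc1, Trdc, Retnlg, Scart1, Actn2 and Cd3d. Retnlg, a neutrophil gene, had 67 CD3-side UMIs in 1 JVL-14 barcode and 363 in 3 sham barcodes. The NK side was led by Elane, Prtn3, Ctsg, Mcpt8, Mpo, Prss34, Ms4a3 and Cpa3. Actn2, a muscle-type actinin that the rule did not read, had 23 UMIs in 9 CD3-side barcodes of JVL-14 and 28 in 12 of sham, and 0 on the NK side of both. Since the rule and the subsets chose barcodes on their RNA, these lists describe the members and test nothing.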

How the data were processed

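Single-cell 3′ libraries (10x Genomics) of JVL-14 and sham dura mater were read as raw UMI counts per gene and barcode, as deposited; Cell Ranger 8.0.0 made them per the file headers, and mm39 is the build in the submitters' processing notes. Of 33696 genes, 26 shared a symbol with a gene of at least as many UMIs over both libraries. These 26 were kept apart under their gene IDs. No doublets were removed, since Scrublet's automatic threshold marked 0.230% and 0.121% of JVL-14 and sham barcodes. The members and lists were chosen with earlier results of these data known, and the TCR set, the other groups of barcodes and the motifs were defined after seeing these values.

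Counts were summed over barcodes per library. A gene was measured with at least 40 UMIs over both libraries, and called past 2-fold. Counts have exact Poisson 95% intervals, shares Clopper-Pearson intervals and ratios exact conditional binomial intervals, all for counting error alone. A count of 0 allows 3 UMIs. Named genes had the highest and lowest ratios (10 each for members, 8 each for the TCR set) among genes with at least 30 UMIs, found in at least 10% of barcodes, with at most 25% of UMIs in 1 barcode and a CPM no lower than 0.5 of that in the remaining barcodes, in the library where they were higher. A named gene could thus have fewer than 40 UMIs over both libraries and not be measured. Mitochondrial, ribosomal, haemoglobin, immunoglobulin and unnamed genes were left out of the ratio ranking. Against other barcodes the 15 leading genes with at least 50 UMIs were named. Python 3.11.15, numpy 2.4.6, scipy 1.17.1, pandas 2.3.3 and scanpy 1.11.5 were used, and the code was tested on simulated data. No test across samples was possible with 1 library a group.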

Additional observations from a re-analysis of the deposited data

How the results depend on the processing

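No paired analysis was possible because each group has 1 library, and no replicate could be left out. The ratio of member shares, JVL-14 over sham, lay between 1.18 and 1.31 over the alternatives, and that of TCR set shares between 1.12 and 1.38. The CD3 side made up 69.2% of JVL-14 members with 0 UMIs of the other classes' rule genes. It made up 71.0% of JVL-14 and 75.5% of sham members with the top 5% of Scrublet scores removed, and 81.8% and 87.5% with members thinned to 1000 UMIs. Over the members, 122 genes were past 2-fold lower with 0 UMIs of those rule genes. There were 12 higher and 10 lower after thinning, 202 higher with cells weighted equally, 385 and 537 at 1.5-fold, 2087 and 3343 at 1 UMI or more, and 36 and 72 at 100 or more. In the TCR set, 11 were lower with 0 UMIs of those rule genes. There were 5 higher and 2 lower after thinning, 16 and 35 without each gene's highest cell, 47 and 85 with barcodes over 10000 UMIs, and 17 higher without the barcodes with Gata3, Il1rl1 and Areg. There were 32 lower in the mean of Trdc and other barcodes, 85 and 75 at 1.5-fold, 1976 and 1765 at 1 UMI or more, and 5 and 2 at 100 or more. These counts come without the number of genes measured, which changed with the UMI limit, and some are given in 1 direction only. They are therefore not shares and cannot be compared between settings or with the percentages given above. With 0 UMIs of the other classes' rule genes, Elane turned to a log2 ratio of -7.06 and Cst7 to -0.17; the cause was not tested. All 16 named TCR set genes kept their direction in 12 of 12 alternatives, and 6 of them stayed past 2-fold in all. Of those 6, Vps28, Hnrnpd and Tmem234 had too few UMIs to be measured. Of the 10 higher and 10 lower named member genes, 8 and 10 kept their direction in 10 of 10. Named genes were chosen by ratio in these libraries, and the alternatives reuse most of the same barcodes. Kept directions are favoured by that choice and say nothing about other animals. Several of the alternatives were chosen after seeing the data.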
